A study of Mus musculus with 13 samples.

Results

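The genes described here are 10 components of the NF-κB pathway: the 5 subunits of the transcription factor (Rela, Relb, Rel, Nfkb1 and Nfkb2), 4 inhibitors of the IκB family (Nfkbia, Nfkbib, Nfkbie and Nfkbiz) and the feedback inhibitor Tnfaip3, which encodes A20. They were chosen by name for their place in the pathway, by a rule that uses no measured value, although results of these data were known when the list was drawn up. Each symbol matched 1 of the 57010 genes listed for every library. RNA-Seq was performed on WT mouse embryonic fibroblasts (MEFs), which are primary cells grown from mouse embryos, in 4 groups of 3 mice each, numbered 4, 5 and 6 in every group. Control MEFs received vehicle. Untreated senescent MEFs were exposed to etoposide, a topoisomerase inhibitor that breaks DNA, at 2 μM for 24 h and then cultured for 5 days. The other 2 groups were such senescent MEFs given Fucoidan-FV, the sulfated fucose polymer from Fucus vesiculosus (a brown seaweed), at 100 or 300 μg/mL for 12 h. Every Fucoidan-FV sample is therefore also etoposide-treated, and no control MEFs with Fucoidan-FV were analysed here.

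NF-κB acts as pairs of subunits that are held in the cytoplasm by IκB proteins. Stimulation of receptors for TNF, interleukin-1 or microbial products activates kinases that mark IκB for destruction, and the freed subunits enter the nucleus and bind κB sites near their target genes. Several targets encode inhibitors of the same pathway, among them IκBα (Nfkbia) and A20, so that the response is limited by feedback. In senescent fibroblasts NF-κB is known as a main driver of the secreted cytokines and proteases called the senescence-associated secretory phenotype (SASP). The factor is controlled to a large extent by protein modification and location, which RNA levels do not measure.

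The sequences just before the transcription start were read because binding of NF-κB to the promoters of its own inhibitors is the textbook basis of this feedback. A match to the κB consensus, searched on both strands of the 250 bases before the start of each gene's canonical transcript in GRCm39, was found for 4 of the 10 genes and for 4.23% of 21770 protein-coding promoters. The 4 are given here over the 100 bases before the start, 5′ to 3′ on the strand of the gene, with the match in capitals. The windows are chr7:19363424-19363523 (minus strand) for Relb, chr10:18891187-18891286 (minus strand) for Tnfaip3, chr12:55539433-55539532 (minus strand) for Nfkbia and chr17:45866506-45866605 (plus strand) for Nfkbie.
Relb: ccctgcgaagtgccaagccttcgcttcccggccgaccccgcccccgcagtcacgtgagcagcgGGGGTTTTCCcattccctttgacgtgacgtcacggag
Tnfaip3: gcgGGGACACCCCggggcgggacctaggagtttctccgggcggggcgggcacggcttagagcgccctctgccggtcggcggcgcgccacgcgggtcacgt
Nfkbia: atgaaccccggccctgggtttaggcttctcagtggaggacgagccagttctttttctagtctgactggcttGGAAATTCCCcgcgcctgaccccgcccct
Nfkbie: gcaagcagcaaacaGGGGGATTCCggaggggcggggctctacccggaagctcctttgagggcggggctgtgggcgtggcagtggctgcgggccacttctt
The matches began 37 bases before the start in Relb, 97 in Tnfaip3, 29 in Nfkbia and 86 in Nfkbie. The match in Nfkbia was read on the strand opposite to the gene. The canonical start is not the outermost annotated start of every gene. The 100 bases shown for Tnfaip3, and the 250 bases searched for Nfkbib and Nfkbiz, lie within the annotated gene. A match is a stretch of letters and not a measured binding site, and the absence of one in this window says nothing of sites elsewhere in a gene. Of the 2 genes called by edgeR in any comparison, Tnfaip3 is in this group of 4 and Nfkbib is not.

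The 13 libraries held 22782536 to 31278750 expected counts, and the libraries 5(1) and 5(2) of control mouse 5 were summed to 1 sample, which gives 12 samples. All 12 fibroblast markers checked, such as Col1a1 and Vim, were expressed. Their summed level was 14007 to 15880 TPM (a level per length of transcript) in control MEFs and 17974 to 22205 TPM in the other groups. Cdkn1a and Cdkn2a, which encode the arrest proteins p21 and p16, rose from means of 468 and 45.2 CPM (counts scaled to a common library size) in control MEFs to 1652 and 248 CPM in senescent MEFs, and the proliferation gene Mki67 fell from 41.8 to 1.75 CPM. Genes whose exonic sequence lies nearly all in 1 transcript varied together between libraries. The 2270 genes with over 95% of it in 1 transcript deviated in their median by −1.44 to 1.03 on the log2 scale, depending on the library, against −0.12 to 0.20 for the 10130 genes with less than 70%. Libraries 5(1) and 5(2), which come from 1 mouse, differed in this value (−1.11 and 0.76). Among the 10 genes, only Rel has a single transcript, and in the others 8.88% to 66.2% of the exonic sequence lies in 1 transcript.

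All 10 genes were expressed above the count filter, at levels that differed widely between them. Per length, Rela was the most abundant with a mean of 101 TPM over the 12 samples, which is higher than in 89.4% of the 15034 genes tested. It encodes p65, the main activating subunit, and ranged from 75.4 to 126 TPM. Nfkb1 (39.4 TPM), which encodes p105 and its product p50, Nfkbib (34.9 TPM) and Nfkb2 (33.3 TPM), which encodes p100 and its product p52, followed. Nfkb1 was above Nfkbib in 8 of 12 samples and Nfkbib was above Nfkb2 in 6 of 12, so the order of these 3 was not stable between samples. Nfkbia reached 25.1 TPM, Relb 14.1 TPM, Nfkbiz 9.94 TPM and Tnfaip3 9.10 TPM, and the order of the last pair held in 6 of 12 samples. Nfkbie (3.44 TPM) and Rel (0.495 TPM) were the lowest, and Rel was below Nfkbie in all 12 samples. Rel, which is best known from lymphocytes, was counted 16 to 125 times per sample, whereas Rela was counted 2131 to 4331 times.

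**Figure D1:**
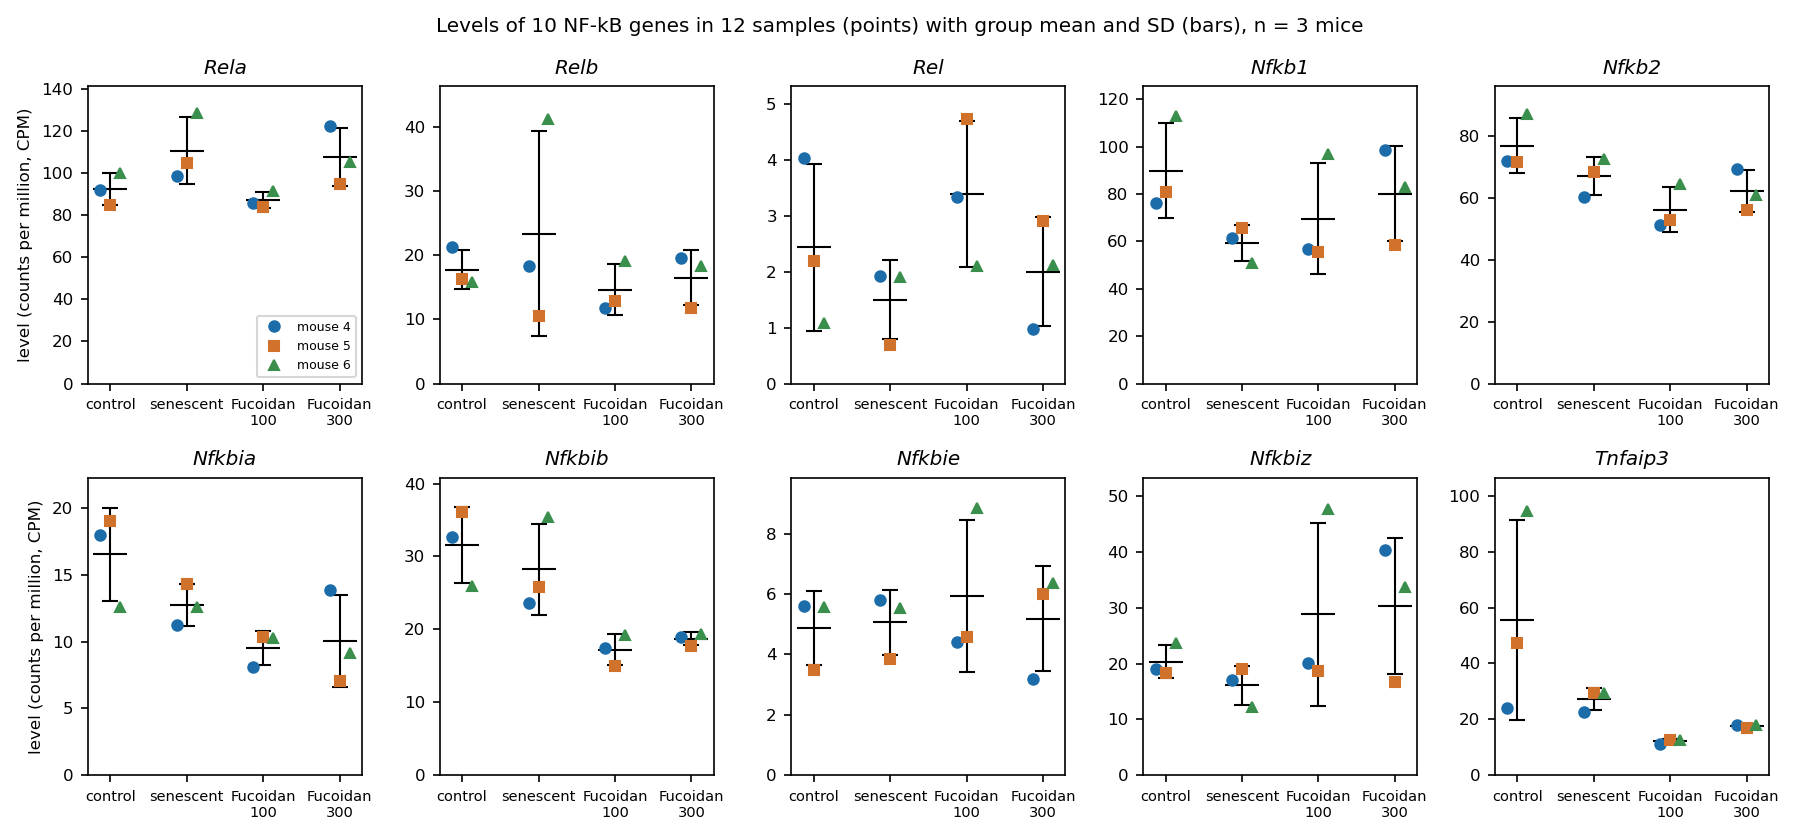
Levels of the 10 genes in CPM (y axes, linear from 0) in control, senescent and Fucoidan-FV-treated senescent MEFs (x axes, dose in μg/mL); each point is 1 mouse, and bars give the group mean with its SD (n = 3). Tnfaip3 lies between 11.02 and 12.6 CPM at 100 μg/mL and between 24.2 and 94.5 CPM in control MEFs, while Rel shows wide scatter at low levels.

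The first question was whether the pathway's own genes change when MEFs become senescent. None of the 10 genes passed the threshold (adjusted p under 0.05 by edgeR's quasi-likelihood test, over all genes) between senescent and control MEFs, whereas 11.7% of all genes tested did. At an unadjusted p under 0.05 there were 2 genes, Nfkb1 and Tnfaip3, both lower in senescent MEFs, against 3818 of the 15034 genes tested. DESeq2 called 1 of the 10, Tnfaip3, and 2796 of all genes. It was given every gene with at least 1 count, so its totals here and below are not shares of the 15034. The median log2 fold change of the 10 genes was −0.27, with 7 below 0, and that of all genes tested was 0.07. Senescent and control values had no overlap for 1 of the 10 genes, Nfkb1, against 27.1% of all genes.

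The subunits showed no shared direction in senescence. Nfkb1 was at 76.1, 80.8 and 113 CPM in control mice 4, 5 and 6 and at 61.3, 65.7 and 50.8 CPM in their senescent counterparts. Each senescent value was below every control value, with a log2 fold change of −0.60 (SE 0.27) and an adjusted p of 0.174 by edgeR. Rela was higher in senescent MEFs in 3 of 3 mice, from 92.1, 85.0 and 100.1 CPM in mice 4, 5 and 6 to 98.7, 105 and 129 CPM. The ranges overlapped, and the log2 fold change of 0.26 (SE 0.17) had an edgeR adjusted p of 0.375. Nfkb2 lay between 71.8 and 87.2 CPM in control MEFs and between 60.4 and 72.6 CPM in senescent MEFs. Relb, the partner of p52 in the alternative pathway, scattered most in senescent MEFs, with 18.3, 10.6 and 41.2 CPM in mice 4, 5 and 6 against 15.8 to 21.2 CPM in control MEFs. The interval of its log2 fold change ran from −0.50 to 1.29 (95%), so neither a decrease nor an increase could be told from these samples.

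The inhibitors did not pass the test in senescence either. Nfkbia was at 18.0, 19.0 and 12.6 CPM in control mice 4, 5 and 6 and at 11.3, 14.4 and 12.6 CPM in senescent MEFs, so that the ranges overlapped. Nfkbiz, which encodes a nuclear IκB that also helps activate some target genes, ranged from 18.3 to 23.7 CPM in control and from 12.3 to 19.0 CPM in senescent MEFs. Nfkbie, which encodes IκBε, was at 3.47 to 5.61 CPM in control and 3.84 to 5.82 CPM in senescent MEFs. Tnfaip3, whose product A20 edits ubiquitin chains and shuts off signalling to NF-κB, showed the widest spread of the 10 genes in control MEFs, with 24.2, 47.5 and 94.5 CPM in mice 4, 5 and 6. In senescent MEFs it was at 22.7, 29.3 and 29.5 CPM, lower in 3 of 3 mice. The log2 fold change of −1.03 (SE 0.37) had an adjusted p of 0.0912 by edgeR, and it depended on the control samples: it was −0.39 without control mouse 6 (adjusted p = 0.424) and −1.40 without control mouse 4 (adjusted p = 0.0114).

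The second question was whether Fucoidan-FV changes these genes in senescent MEFs. At 100 μg/mL none of the 10 genes passed the threshold in edgeR, against 4.02% of all genes. Unadjusted p-values were under 0.05 for 2 of them, Nfkbib and Tnfaip3, both lower with Fucoidan-FV, and for 2981 of the 15034 genes. DESeq2 called 1 of the 10 genes, Nfkbib (log2 fold change −0.63, DESeq2 adjusted p = 0.0355), and 1405 of all genes. For 5 of the 10 genes the treated and untreated CPM had no overlap, a state of 26.2% of all genes. In CPM, Rela, Nfkbia, Nfkbib and Tnfaip3 were lower and Rel was higher in every treated sample. On the TPM scale the log2 differences were 0.19 for Rela, −0.03 for Nfkbia and −0.0019 for Nfkbib. Those of Tnfaip3 and Rel were −0.63 and 0.78, and the median tested gene was higher by 0.34. The median log2 fold change of the 10 genes was −0.30, and that of all genes tested was −0.02.

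At 300 μg/mL none of the 10 genes passed the threshold, against 1.9% of all genes. The 2 genes with an unadjusted p under 0.05 were Nfkbib, which was lower, and Nfkbiz, which was higher, and DESeq2 called 0 of the 10. Over all genes, 2297 of 15034 had an unadjusted p under 0.05 and DESeq2 called 991. Treated and untreated CPM had no overlap for Nfkbib and Tnfaip3, or 2 of 10 genes against 19.6% of all genes. Between the doses no member passed, with 0 unadjusted p-values under 0.05 in edgeR and 0 calls in DESeq2, and 0.00665% of all genes did. The 2 comparisons with senescent MEFs share the senescent samples, so their values stand side by side and are not separate evidence.

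Of the 10 genes, Tnfaip3 had the most negative log2 fold change against senescent MEFs at both doses. From 22.7, 29.3 and 29.5 CPM in senescent mice 4, 5 and 6 it went to 11.02, 12.6 and 12.4 CPM at 100 μg/mL and to 17.9, 16.8 and 17.9 CPM at 300 μg/mL. All 6 treated values were below all 3 senescent ones, and the treated values lay close together. The log2 fold change against senescent MEFs was −1.18 at 100 μg/mL (SE 0.37, 95% interval −1.97 to −0.38, adjusted p = 0.0914 in edgeR). With offsets for unique sequence, length and GC content the same comparison gave −1.38 and an edgeR adjusted p of 0.0432. That fit called 1052 of all genes, against 605 without offsets. Over all alternatives the adjusted p of Tnfaip3, from edgeR or DESeq2, ran from 0.0284 to 0.306, and DESeq2 did not call the gene. At 300 μg/mL the log2 fold change was −0.63 (SE 0.37, edgeR adjusted p = 0.456). The higher dose left Tnfaip3 above the lower dose in 3 of 3 mice, by 0.54 on the log2 scale with an interval of −0.25 to 1.33.

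Nfkbib, which encodes IκBβ, an inhibitor that recovers more slowly than IκBα after a stimulus, was at 23.6, 25.9 and 35.4 CPM in senescent mice 4, 5 and 6. With 100 μg/mL it was at 17.4, 14.95 and 19.2 CPM, and with 300 μg/mL it was at 19.0, 17.7 and 19.4 CPM. Every treated value was below every senescent one. The log2 fold changes were −0.72 (SE 0.23, adjusted p = 0.104 in edgeR) and −0.60 (SE 0.23, adjusted p = 0.231). On the TPM scale, however, the groups were alike, with means of 34.0 ± 5.04 TPM in senescent MEFs and 33.7 ± 1.23 TPM at 100 μg/mL (SD, n = 3). On that scale the median of all tested genes was higher by 0.34 (log2) at 100 μg/mL than in senescent MEFs and by 0.26 at 300 μg/mL. Relative to the median gene Nfkbib was lower by a log2 difference of −0.34 at either dose.

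Nfkbia was lower than in senescent MEFs in 3 of 3 mice at 100 μg/mL, with 8.08, 10.3 and 10.2 CPM in mice 4, 5 and 6. The log2 fold change was −0.42 with an interval of −1.07 to 0.24. At 300 μg/mL mouse 4 was at 13.8 CPM, inside the senescent range, and mice 5 and 6 were at 7.08 and 9.17 CPM. The opposite direction was seen for Nfkbiz, which was at 20.1, 18.7 and 47.6 CPM at the lower dose and reached 40.4, 16.7 and 33.8 CPM at the higher one, against 17.0, 19.0 and 12.3 CPM in senescent mice 4, 5 and 6. Mouse 6 was high at both doses, mouse 4 at the higher dose only, and mouse 5 at neither. In each group the highest Nfkbiz was in the sample whose single-transcript genes had the lowest median deviation. These samples were control mouse 6 (−1.44, log2), senescent mouse 5 (−0.74), mouse 6 at 100 μg/mL (−0.12) and mouse 4 at 300 μg/mL (−0.92). The part of this deviation in the Nfkbiz values was not tested. The log2 fold changes of Nfkbiz were 0.84 (SE 0.39, edgeR adjusted p = 0.255) and 0.91 (SE 0.39, edgeR adjusted p = 0.282). Nfkbie stayed between 3.18 and 8.86 CPM in the treated samples and overlapped the senescent range at both doses.

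Among the subunits, Rela was lower at 100 μg/mL than in senescent MEFs in every sample (86.0, 84.1 and 91.7 CPM in mice 4, 5 and 6), by a log2 fold change of −0.34 with an interval of −0.71 to 0.02. At 300 μg/mL it was at 122, 95.03 and 105 CPM, with a log2 fold change of −0.04. On the TPM scale the direction was the other one. Means of Rela were 94.4 ± 2.00 TPM in senescent MEFs, 108 ± 6.10 TPM at 100 μg/mL and 118 ± 6.35 TPM at 300 μg/mL (SD, n = 3). Relative to the median gene, Rela differed from senescent MEFs by −0.15 and 0.06 (log2) at the lower and higher dose. Nfkb1 was above the senescent range in mouse 6 at 100 μg/mL (96.9 CPM) and in mice 4 and 6 at 300 μg/mL (98.7 and 83.2 CPM), and the other treated samples were at 55.4 to 58.7 CPM. As for Nfkbiz, the highest Nfkb1 of each group was in the sample with the lowest median of the single-transcript genes. The part of that deviation in the Nfkb1 values was not tested. Nfkb2 was at 51.1 to 64.6 CPM at 100 μg/mL and 56.1 to 69.5 CPM at 300 μg/mL. Relb was at 11.7 to 19.5 CPM over both doses, within the senescent range.

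Rel, which encodes c-Rel, was at 1.92, 0.690 and 1.90 CPM in senescent mice 4, 5 and 6, at 3.35, 4.73 and 2.11 CPM with the lower dose and at 0.969, 2.92 and 2.12 CPM with the higher one. Its level moved with the deviation of the single-transcript genes described above. The 4 libraries in which those genes were lowest (control mouse 6, library 5(1), senescent mouse 5 and mouse 4 at 300 μg/mL) were also the 4 with the lowest Rel, and the library with the highest median, mouse 5 at 100 μg/mL, had the highest Rel. In libraries 5(1) and 5(2) of the same control mouse, Rel was at 0.808 and 3.77 CPM. The part of this deviation in the Rel values of the groups was not tested.

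**Figure D2:**
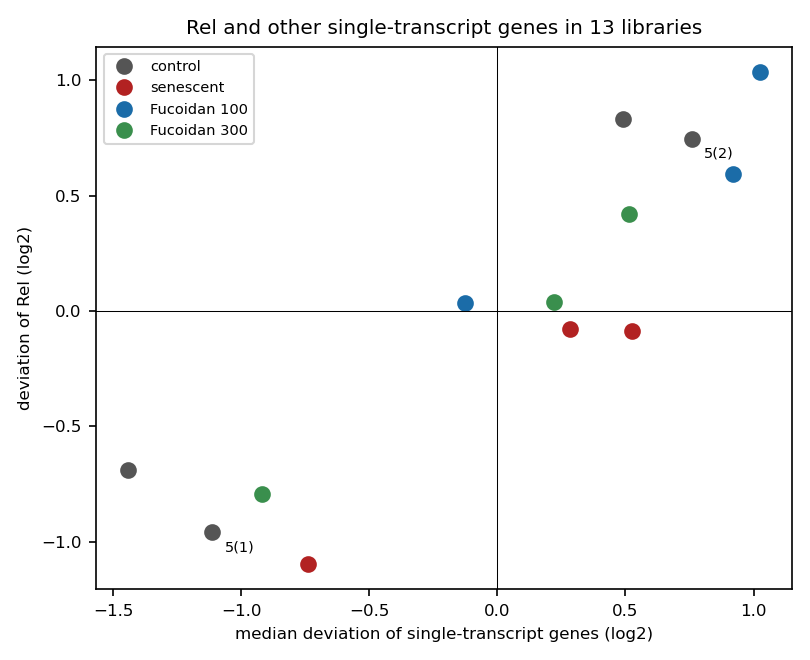
Deviation of Rel from its mean log2 level (y axis) against the median deviation of the 2270 single-transcript genes (x axis, log2) in each of the 13 libraries, coloured by group; the numbers mark both libraries of control mouse 5. The libraries with low single-transcript genes have low Rel in control, senescent and 300 μg/mL samples alike.

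The third comparison set Fucoidan-FV-treated senescent MEFs beside control MEFs. These groups differ by etoposide and Fucoidan-FV together, and the part of each cannot be told apart in it. Against control MEFs, 2 of the 10 genes were lower at 100 μg/mL, Tnfaip3 and Nfkbib, where 26.6% of all genes were called and 14.4% were called lower. The same 2 genes were lower at 300 μg/mL, where 24.4% of all genes were called and 12% were called lower. No member was called higher at either dose. Both comparisons use the same control samples.

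Tnfaip3 was lower than in control MEFs in 3 of 3 mice at both doses, with log2 fold changes of −2.20 at 100 μg/mL (SE 0.38, adjusted p = 0.000966 in edgeR) and −1.66 at 300 μg/mL (SE 0.37, adjusted p = 0.00562). The mean was 55.4 ± 35.8 CPM in control MEFs, 12.02 ± 0.874 CPM at 100 μg/mL and 17.5 ± 0.649 CPM at 300 μg/mL (SD, n = 3). Much of the size of the difference came from control mouse 6 (94.5 CPM): without it the log2 fold changes were −1.41 and −0.97, with edgeR adjusted p-values of 0.00381 and 0.0252. The call held in every alternative tried. On the TPM scale Tnfaip3 was at 4.51 to 6.08 TPM at 100 μg/mL, 6.23 to 6.98 TPM at 300 μg/mL and 8.01 to 26.6 TPM in control MEFs, again with no overlap. The gene lies at chr10:18874201-18891405 on the minus strand, and none of its exonic sequence overlaps another listed gene on the opposite strand.

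Nfkbib was lower than in control MEFs, which had 32.7, 36.1 and 25.9 CPM in mice 4, 5 and 6, by log2 fold changes of −0.88 at 100 μg/mL (SE 0.23, adjusted p = 0.0142 in edgeR) and −0.76 at 300 μg/mL (SE 0.23, adjusted p = 0.0309). The treated samples of either dose did not overlap the control samples. This call was less firm. It was lost with the count filter removed (edgeR adjusted p = 0.0585 and 0.0941) and without control mouse 4 (0.0620 and 0.0774) or 5 (0.0909 and 0.110). It was also lost without mouse 4 or 5 of the 100 μg/mL group (0.0537 and 0.0714) and without mouse 4, 5 or 6 of the 300 μg/mL group (0.0665, 0.0980 and 0.0820). On the TPM scale Nfkbib was lower at both doses by log2 differences of −0.23 and −0.31, where the median tested gene was higher by 0.42 and 0.32. Nfkbib (chr7:28457486-28466937, minus strand) shares up to 14.5% of its exonic sequence with Ccer2 or Sirt2 on the opposite strand, and reads of overlapping genes cannot be told apart without strand. Sirt2 had log2 fold changes against control of 0.17 and 0.43 (adjusted p = 0.525 and 0.101 in edgeR), and its part in the Nfkbib values was not tested.

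Nfkbia came close to the threshold against control MEFs, with log2 fold changes of −0.79 (SE 0.30, edgeR adjusted p = 0.0708) at 100 μg/mL and −0.72 (SE 0.30, edgeR adjusted p = 0.103) at 300 μg/mL. DESeq2 called it at both doses (DESeq2 adjusted p = 0.0450 and 0.0467). In CPM, Nfkb2 was lower than in every control sample at both doses. The log2 fold changes were −0.45 (edgeR adjusted p = 0.0774) and −0.31 (edgeR adjusted p = 0.238). On the TPM scale it was not lower, with means of 33.6 TPM in control MEFs and 34.6 TPM at either dose. Relative to the median gene Nfkb2 was lower by log2 differences of −0.38 and −0.28. Of its exonic sequence, up to 25.4% overlaps Psd or 4833438C02Rik on the opposite strand, which were at 1.10 to 3.61 CPM in their group means. For Nfkb1, Rela, Relb, Rel, Nfkbie and Nfkbiz the intervals against control included 0 at both doses.

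**Figure D3:**
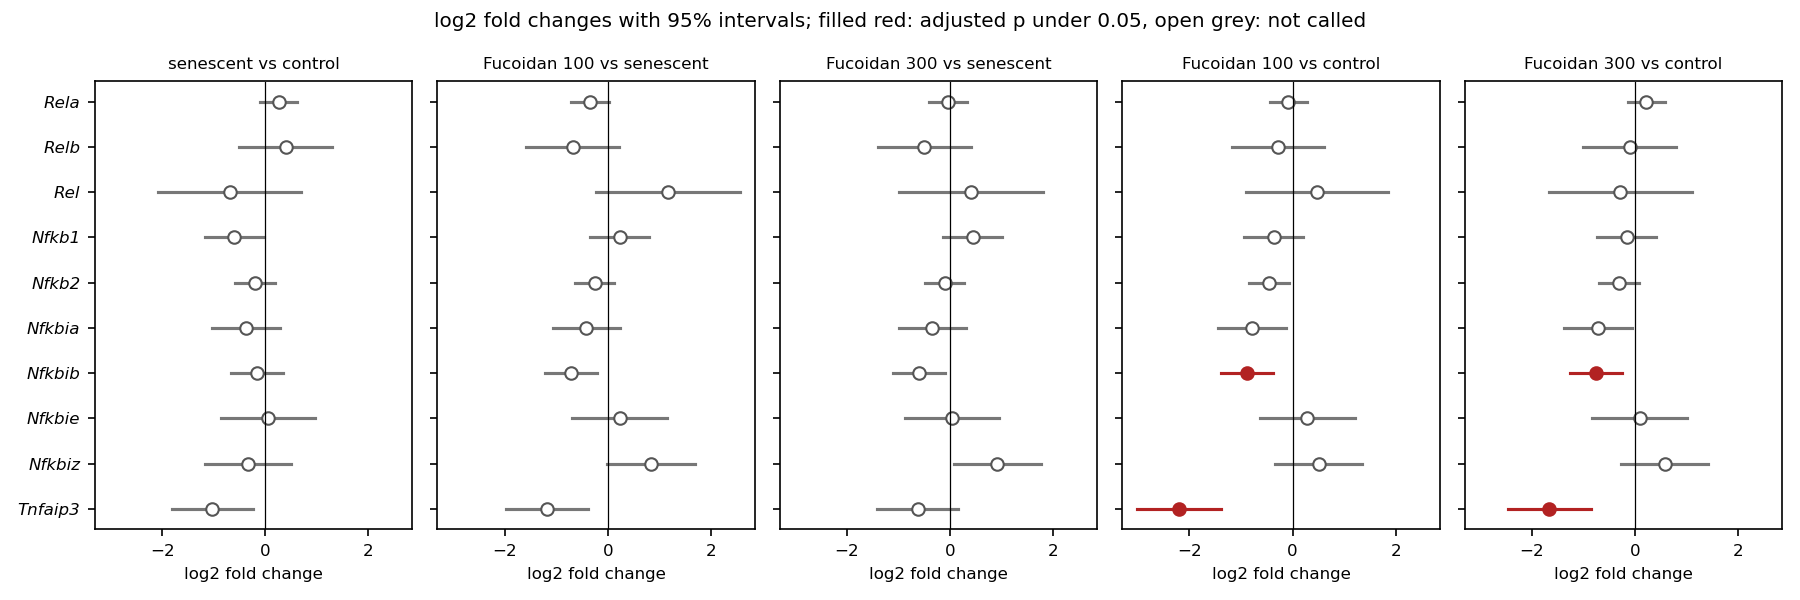
Log2 fold changes (x axes) of the 10 genes (rows) in 5 comparisons, with 95% intervals as lines; filled red points passed an edgeR adjusted p of 0.05 and open points did not. Tnfaip3 and Nfkbib passed against control at both doses, and no gene passed in the other 3 comparisons.

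Across the 12 samples, the pairs of these genes with the most similar levels were Nfkb2 with Tnfaip3 (Pearson r of log2 CPM 0.85), Nfkbia with Nfkbib (0.77) and Nfkb1 with Nfkbiz (0.75). These samples share groups, mice and depth, and the values describe likeness only. For Tnfaip3 the most similar other genes were Cdk8 (r 0.95), Preb (0.94) and Sltm (0.94). For Nfkbib they were Rpl27, Tufm and Rpl14 (0.98 each), of which Rpl27 and Rpl14 encode ribosomal proteins. For Rel they were Polr2b, Zfp948 and Spcs3 (0.96 to 0.97), and for Nfkbiz they were Crtc1, H6pd and Rasa3 (0.92 to 0.94).

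The other parts of the pathway were described from lists written from general knowledge. Of 10 receptors that signal to NF-κB, 0 were called in edgeR between senescent and control MEFs, against 11.7% of all genes. At an unadjusted p under 0.05 there were 2 receptors, against 3818 of the 15034 genes. DESeq2 called 1 receptor higher and 1 lower, and 2796 of all genes. With Fucoidan-FV at 100 μg/mL, 1 receptor rose and 1 fell against senescent MEFs, where 1.14% of all genes rose and 2.89% fell. Il1r1, the receptor for interleukin-1, rose from a mean of 9.91 to 42.2 CPM (log2 fold change 2.09, SE 0.45, edgeR adjusted p = 0.0229). Tnfrsf12a, the receptor for TWEAK, fell from 422 to 126 CPM (log2 fold change −1.74, SE 0.26, edgeR adjusted p = 0.00422). The same 2 receptors were called at 300 μg/mL, at 40.5 and 143 CPM, where 0.778% of all genes rose and 1.12% fell. The exons of Tnfrsf12a lie wholly opposite those of Hcfc1r1, which had log2 fold changes of 0.61 and 0.78 (edgeR adjusted p = 0.240 and 0.180) and whose part in the Tnfrsf12a values was not tested. The Il1r1 call was lost under 3 of 17 alternatives at 100 μg/mL and 6 at 300 μg/mL, where the replicate block was among them (edgeR adjusted p = 0.0742). The Tnfrsf12a call was lost under 1 and 2.

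Of 45 tested regulators of the pathway, such as IκB kinases, adaptors and ubiquitin enzymes, 2 rose in senescence and 0 fell, where 6.11% of all genes rose and 5.63% fell. Pdlim2, which encodes a nuclear ubiquitin ligase that ends p65 activity, rose from 14.5 to 44.8 CPM (log2 fold change 1.62, SE 0.26, edgeR adjusted p = 0.00137), and kept its call in 17 of 17 alternatives. Ikbke, which encodes an IκB kinase-related kinase, rose from 8.33 to 16.5 CPM (log2 fold change 0.98, SE 0.29, edgeR adjusted p = 0.0432) and lost its call in 8 of 17, among them the replicate block (edgeR adjusted p = 0.0778). None of the 45 regulators was called at either dose against senescent MEFs in edgeR, while DESeq2 called 3 at the lower and 2 at the higher dose. Over all genes DESeq2 called 1405 and 991. At an unadjusted p under 0.05 in edgeR there were 6 and 5 of the 45 regulators, and 2981 and 2297 of the 15034 genes.

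Of 41 known target genes, 25 were expressed enough to be tested. In senescence 5 rose, 1 fell and 19 were not called, where 6.11% of all genes rose and 5.63% fell. With the replicate block 3 rose and 1 fell. Icam1, which encodes an adhesion molecule for leukocytes, rose from 0.107 to 7.90 CPM (log2 fold change 5.82, SE 0.70, edgeR adjusted p = 0.000204), and Fas, which encodes a death receptor that is also a p53 target, from 4.30 to 49.8 CPM. Ptges, an enzyme of prostaglandin E2 synthesis, and Bcl2l1, which encodes the survival protein BCL-XL, rose by log2 fold changes of 1.51 and 0.54 with adjusted p-values of 0.0431 and 0.0442 in edgeR. These calls were lost in 6 and 10 of 17 alternatives. The remaining gene called higher was Mmp13, at low levels, from 0.113 to 0.722 CPM (log2 fold change 2.69, SE 0.79, edgeR adjusted p = 0.0430). Mmp9, a gelatinase, fell from 13.2 to 1.42 CPM (log2 fold change −3.22), and lost its call in 2 of 16 alternatives.

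Against senescent MEFs, 3 target genes rose, 3 fell and 19 were not called at 100 μg/mL, where 1.14% of all genes rose and 2.89% fell. At 300 μg/mL 1 rose, 2 fell and 22 were not called, where 0.778% of all genes rose and 1.12% fell. With the replicate block 1 rose and 2 fell at the lower dose, where Cxcl5, Vcam1 and Tnfaip2 were no longer called (edgeR adjusted p = 0.104, 0.0561 and 0.0743), and 0 rose and 2 fell at the higher dose, where Mmp13 was not (edgeR adjusted p = 0.0525). The targets that fell at both doses were Csf1, a macrophage growth factor, and Bcl2l1. Bcl2l1 went from a mean of 180 CPM in senescent MEFs to 83.7 CPM at 100 μg/mL (log2 fold change −1.10, SE 0.16, edgeR adjusted p = 0.00427) and 97.2 CPM at 300 μg/mL (−0.89, SE 0.16, edgeR adjusted p = 0.0146). Bcl2l1 lost its call in 0 of 17 alternatives at 100 μg/mL and 3 of 17 at 300 μg/mL, and Csf1 in 0 of 17 at either dose. Tnfaip2 fell at 100 μg/mL (log2 fold change −0.65, edgeR adjusted p = 0.0481), a call that 13 of 17 alternatives lost. Mmp13, a collagenase with a single transcript like Rel, rose from 0.722 to 10.5 CPM at 100 μg/mL and to 7.09 CPM at 300 μg/mL, and lost its call in 0 of 16 alternatives at the lower dose and 9 of 16 at the higher. Vcam1, an adhesion molecule, and Cxcl5, a neutrophil chemokine, rose at 100 μg/mL, by log2 fold changes of 1.04 and 4.32, and lost their calls in 11 of 17 and 10 of 16 alternatives. Expression of the tested targets thus had members in both directions at each dose, and the median over the 25 was 0.25 (log2) at the lower dose and 0.10 at the higher.

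**Figure D4:**
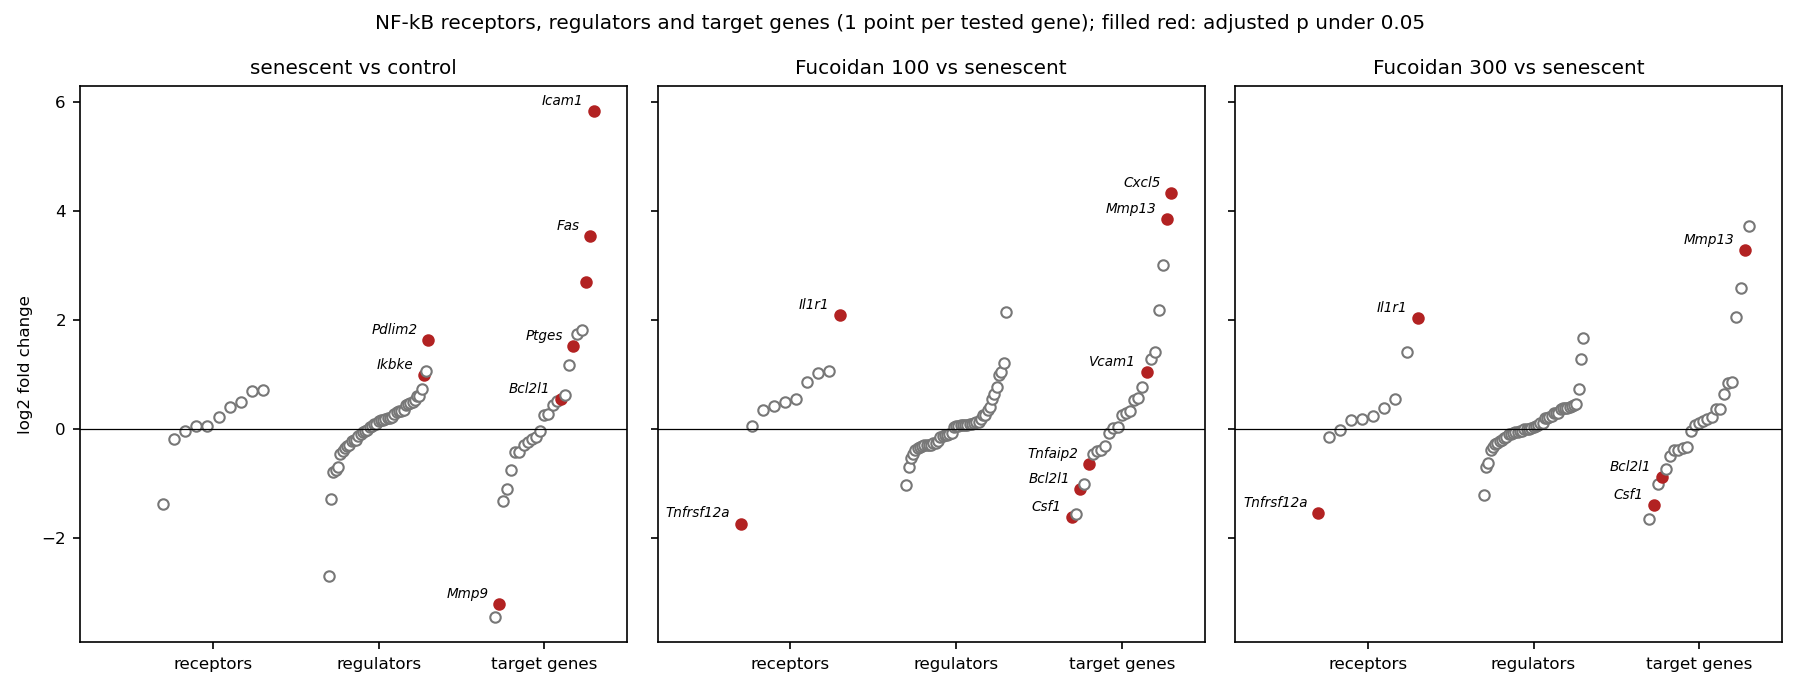
Log2 fold changes (y axis) of 10 receptors, 45 regulators and 25 target genes of NF-κB in 3 comparisons, ordered by size within each list, with 1 point per tested gene; filled red points passed an edgeR adjusted p of 0.05. Red points are few and lie on both sides of 0 among receptors and target genes.

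Cell types with strong NF-κB activity were looked for by their markers, since in bulk RNA fewer cells of a type and less RNA per cell cannot be told apart. The 10 macrophage markers, of which 7 passed the count filter, summed to 0.26 to 5.08 TPM in control MEFs, 3.45 to 10.8 TPM in senescent MEFs, 8.23 to 18.3 TPM at 100 μg/mL and 4.62 to 14.3 TPM at 300 μg/mL. The pan-leukocyte marker Ptprc did not exceed 1.25 CPM in any sample. The 6 lymphocyte markers summed to at most 0.94 TPM, and Cd3e was counted at most 1 time. Skeletal muscle markers summed to 202 to 277 TPM in control, 242 to 315 TPM in senescent, 135 to 211 TPM at 100 μg/mL and 123 to 186 TPM at 300 μg/mL. The 6 endothelial markers, of which 4 passed the count filter, summed to 0.77 to 1.23 TPM in control, 0.41 to 2.05 TPM in senescent, 2.82 to 6.52 TPM at 100 μg/mL and 1.74 to 3.92 TPM at 300 μg/mL. Their sums at 100 μg/mL were above those of every senescent sample, and 1 of the 4 was called higher there. The 6 epithelial markers summed to 0 to 2.46 TPM over all samples. In TPM the 100 μg/mL group had the highest macrophage sums and the lowest mean Tnfaip3, while its mean Nfkbib was the lowest in CPM only. In edgeR, 3 of the 7 tested macrophage markers were higher at 100 μg/mL than in senescent MEFs, 4 were lower and 0 were called. Against control MEFs, where Tnfaip3 and Nfkbib were called, 7 of these 7 markers were higher with either dose and 0 were lower. Of the 7, 1 was called higher in each of these comparisons, and their median log2 fold changes were 1.69 (lower dose) and 0.77 (higher dose). Untreated senescent MEFs also had 7 of 7 above control MEFs, by a median of 2.09 (log2), with 0 called. The part of other cell types in the results was not tested.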

How the data were processed

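RNA-Seq of 13 libraries from 12 samples of mouse embryonic fibroblasts was used. Reads were aligned by the authors to GRCm39 with STAR 2.7.11b, and the deposited values are RSEM 1.3.1 expected counts per gene, without normalization, after trimming with Trimmomatic and checks with FastQC 0.12.1. TPM values, normalized for length and depth by RSEM, were deposited beside them and served only to compare levels between genes and to check directions. The libraries were made with a stranded total RNA kit, but whether counting used strand is not given in the sources used here. A deposited table of expected counts for all libraries (27297 genes) differed from the single libraries by at most 0.

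Gene symbols and positions came from the GENCODE annotation of GRCm39, which matched 56310 of 57010 genes. Promoters are the 250 bases before the canonical transcript start in that build. Expected counts were rounded and libraries 5(1) and 5(2) summed. The filterByExpr function, with a minimum count of 10 and a minimum total of 15, left 15034 genes. Tests used edgeR 4.0.16 in R 4.3.3 (quasi-likelihood, TMM factors, 1 fit over 4 groups, no block), with Benjamini-Hochberg adjustment over all genes in each of 6 comparisons and a threshold of 0.05. CPM are TMM-scaled. The method was tested on simulated data. The p-values measure the spread between 3 mice per group, and 22782536 to 31278750 counts per library set the counting precision.

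The labels give samples of different groups the same mouse numbers. Values of the same number were set side by side on these labels, but the main test is not paired. The deviations of same-numbered samples from their group means correlated weakly: over 18 pairs the median was 0.0038, the range −0.17 to 0.34, and 8 exceeded 0.1. The members and gene lists, written from general knowledge, were chosen with earlier results of these data known. Besides all 10 members, genes were named from the lists of receptors, regulators and targets when among the 4 largest increases or decreases per list with an adjusted p under 0.05 and at least 1 CPM on average in whichever group was higher. The 3 most alike genes were named for the 4 members with the widest range of group means. Genes named for overlap with a member or with Tnfrsf12a, markers, and Mmp13 in senescence are outside this rule.

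Alternatives were DESeq2 1.42.0, RLE factors, other count filters, a fit of the compared groups, libraries 5(1) and 5(2) separate or alone, the mouse as a block, offsets for unique sequence, length and GC content fitted within each library (20 bins each) with and without the block, a log2 fold change over 1 as in the study's DEG rule, and each mouse of a group left out. Their use on the listed genes, and the TPM differences, were added after seeing the data.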

Additional observations from a re-analysis of the deposited data

How the results depend on the processing

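Counts of the 10 genes past the threshold were recomputed under each alternative, and the differences are small numbers of genes near the threshold. Between senescent and control MEFs the count of 0 became 1 with DESeq2 (Tnfaip3, adjusted p = 0.0485), 1 without the count filter (Tnfaip3, edgeR adjusted p = 0.0187) and 1 with offsets and the replicate block (Nfkb1, edgeR adjusted p = 0.0414), and it was 0 to 1 when single mice were left out (1 without control mouse 4). For 100 μg/mL against senescent MEFs the count of 0 became 1 with DESeq2 (Nfkbib), and 1 without the filter, 1 with offsets and 1 with offsets and the replicate block (Tnfaip3 in these 3, edgeR adjusted p = 0.0284, 0.0432 and 0.0344). For 300 μg/mL against senescent MEFs and between the doses it was 0 in all alternatives run. Against control MEFs the count of 2 at 100 μg/mL became 3 with DESeq2, 3 with libraries 5(1) and 5(2) separate (Nfkbia added in both), 3 with offsets (Nfkb2 added), 4 with offsets and the replicate block (Nfkb1 and Nfkb2 added), 1 without the filter and 1 when a log2 fold change over 1 was also asked, and 1 to 2 when single mice were left out. At 300 μg/mL the count of 2 became 3 with DESeq2 (Nfkbia added), 3 with offsets and 3 with offsets and the replicate block (Nfkb2 added in both), 1 without the filter, 1 with library 5(2) as the control sample of mouse 5, 1 under the fold change rule and 1 to 2 when single mice were left out. Where the count fell to 1, Tnfaip3 was the gene that stayed. The replicate block alone changed no call of the 10 genes, although it did of some other genes of the pathway, and Tnfaip3 against control had log2 fold changes of −2.08 and −1.53 with it. Of 1080 values of single genes under an alternative, 1049 kept their side of the threshold, 14 lost and 17 gained a call, 0 called values changed sign, and 60 uncalled ones did. Removing 1 sample leaves a group with 2, so the calls lost there rest on fewer samples. The cause of the other changes was not tested. Depth limits Rel and Nfkbie most, with as few as 16 and 82 counts in a sample.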

Other observations

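Libraries 5(1) and 5(2), both from control mouse 5, give the spread within 1 mouse for these genes. Nfkbie was at 1.55 CPM in library 5(1) and 5.63 CPM in library 5(2). Tnfaip3 was at 37.2 and 57.5 CPM and Nfkbib at 43.5 and 25.4 CPM. For Nfkb1, Nfkb2, Rela, Relb, Nfkbia and Nfkbiz the libraries differed by −0.19 to 0.37 on the log2 scale. With 1 pair of libraries this spread has no error of its own.

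Against control MEFs, where 26.6% of all genes were called at 100 μg/mL and 24.4% at 300 μg/mL, 3 of 10 receptors rose and 1 fell at 100 μg/mL. At the higher dose 2 rose and 1 fell. Of the 45 regulators tested, the lower dose had 5 higher and 1 lower, and the higher dose 5 higher and 0 lower. Of the 25 target genes tested, the lower dose had 7 higher and 4 lower, and the higher dose 4 higher and 3 lower. Of all genes, 14.4% were called lower at the lower dose and 12% at the higher one. These comparisons share the control samples.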
